A study of Mus musculus with 7 samples.

Results

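The genes described here are the C-type lectins and Siglecs that carry those names in the authors' deposited table, which are the symbols that begin with Clec, a number and a letter, or with Siglec. Clec1b, Clec7a, Clec14a and Siglech were left out of the set. The rule found 33 of the 23358 genes in the table, 28 of them C-type lectins and 5 of them Siglecs, and it used names and no measured value.

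The study profiled RNA from cells labelled endothelial, sorted from the brains of C57Bl6 mouse embryos at stage E14.5. There were 4 libraries labelled as lacking Tgfbr2, whose product is the ligand-binding receptor for TGF-β, and 3 control libraries. Cells of both groups were sorted on TdTomato, a red fluorescent reporter that the Ai14 allele switches on after recombination by Cre, and each library was built from 2000 to 5000 cells and read in single-end reads of 50 bases. The sources used here do not give the Cre driver, the deleted part of Tgfbr2 or the alleles of the controls. Each gene has 1 value in each group, an FPKM made by the authors, which counts fragments relative to transcript length and library size. With no value per library, no spread between replicates can be given. Depth per library is unknown, no interval is set on any value, and the error measure is the q-value of the authors' test. Since no label ties a library to its own embryo, the q-values cover the spread among these libraries alone, and that spread may be technical.

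C-type lectin receptors are cell-surface proteins built on a shared fold that in many of them binds sugars. Siglecs are immunoglobulin-like receptors that bind sialic acid at the ends of glycans. In both families some receptors activate the cell through adaptor proteins with tyrosine-based activating motifs, such as the Fc receptor γ chain and DAP12, while others carry inhibitory motifs that recruit tyrosine phosphatases. In the brain they are known mainly from microglia and from the macrophages of the meninges and vessel borders.

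The labelled cell type was checked against marker genes. Tgfbr2 stood at 65.4 FPKM in the Tgfbr2-deficient group and 91.1 FPKM in the control group, and the authors' deposited table gives q = 0.0953, which does not pass 0.05. All 10 endothelial markers reached 1 FPKM in a group, with a median of 22.5 FPKM in the Tgfbr2-deficient group and 2.11 FPKM in the control group. The 10 microglia and macrophage markers had medians of 164 FPKM in the Tgfbr2-deficient group and 401 FPKM in the control group, so markers of macrophages exceeded those of endothelium in both groups. In bulk RNA, fewer cells of a type and less RNA per cell cannot be told apart, and every level below is relative to the other RNA of its group.

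The lectins and Siglecs divided by level. The more abundant ones were mostly receptors of myeloid cells and were lower in the Tgfbr2-deficient group, while 3 genes near 1 FPKM were higher. Clec4a1, Clec4a2 and Clec4a3, members of the DCIR family of myeloid lectins, stood at 39.3% to 42.3% of their control level, and Siglece, an inhibitory Siglec of mouse myeloid cells, stood at 41.5%. Clec4n, which encodes the fungal mannan receptor Dectin-2, stood between Clec4a3 and Clec4a2 in the control group and did not pass the test.

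Of the 33 genes, the authors tested 19 and left 14 untested. A gene was counted when it had a test and reached 1 FPKM in either group, and 17 did. By a q-value under 0.05 in the authors' deposited table, 7 of the 17 were lower in the Tgfbr2-deficient group (41.2%), against 14.7% of the 13356 genes counted over the whole table. In the other direction 3 of the 17 were higher (17.6%), against 23.9% of all genes. The 3 higher ones, Clec1a, Clec11a and Siglec5, reached 1 FPKM in the Tgfbr2-deficient group alone, so they were counted through the group in which they are high, and Clec2d was counted through the control group alone. The remaining 13 reached it in both. The median log2 fold, taken on FPKM + 1, Tgfbr2-deficient over control, was −0.34 for the 17 genes and −0.08 for all counted genes. The member median changes sign, to 0.20, when folds are centred on the 81 cytoplasmic ribosomal protein genes, which adds 0.54 to every log2 fold.

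The split ran along level, for these genes and for the table as a whole. With a minimum of 5 FPKM in either group there were 9 lectins and Siglecs, of which 7 were lower, 0 were higher and 2 did not pass, where 19.5% of the 9558 genes of that level were lower and 17.2% higher. The median log2(FPKM + 1) fold of the 9 was −1.19 and that of all genes of that level was −0.21. Of the 8 counted genes under 5 FPKM, 0 were lower, 3 were higher and 5 did not pass, where 2.66% of all genes in that range were lower and 40.9% higher. Their median log2(FPKM + 1) fold of 0.44 stood beside 0.43 for all genes of that range. The lectins and Siglecs of low abundance thus had the median of other genes of low abundance, and those at 5 FPKM or more had a lower one than other genes of that level, a difference that was not tested.

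**Figure D1:**
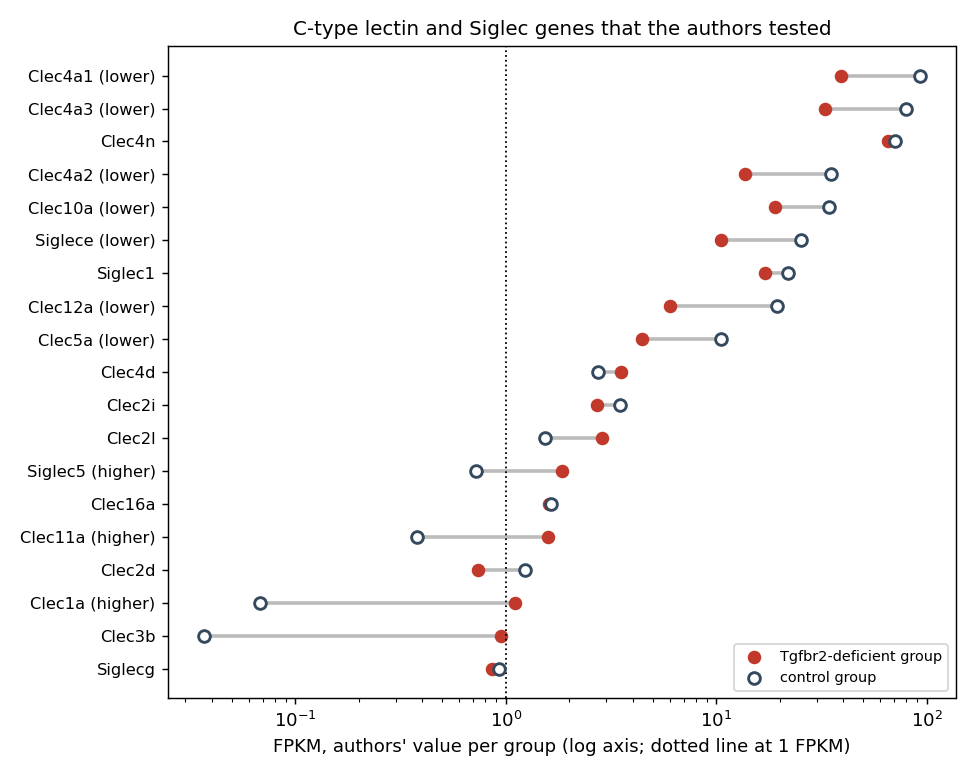
FPKM of the 19 tested C-type lectin and Siglec genes in the Tgfbr2-deficient (filled) and control (open) groups, 1 value per group on a log axis, with no error bars because the file has no values per library. Genes marked lower or higher passed a q-value under 0.05, and the Tgfbr2-deficient point lies left of the control point in all of the upper 9 genes, 7 of which were lower by that test.

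**Figure D2:**
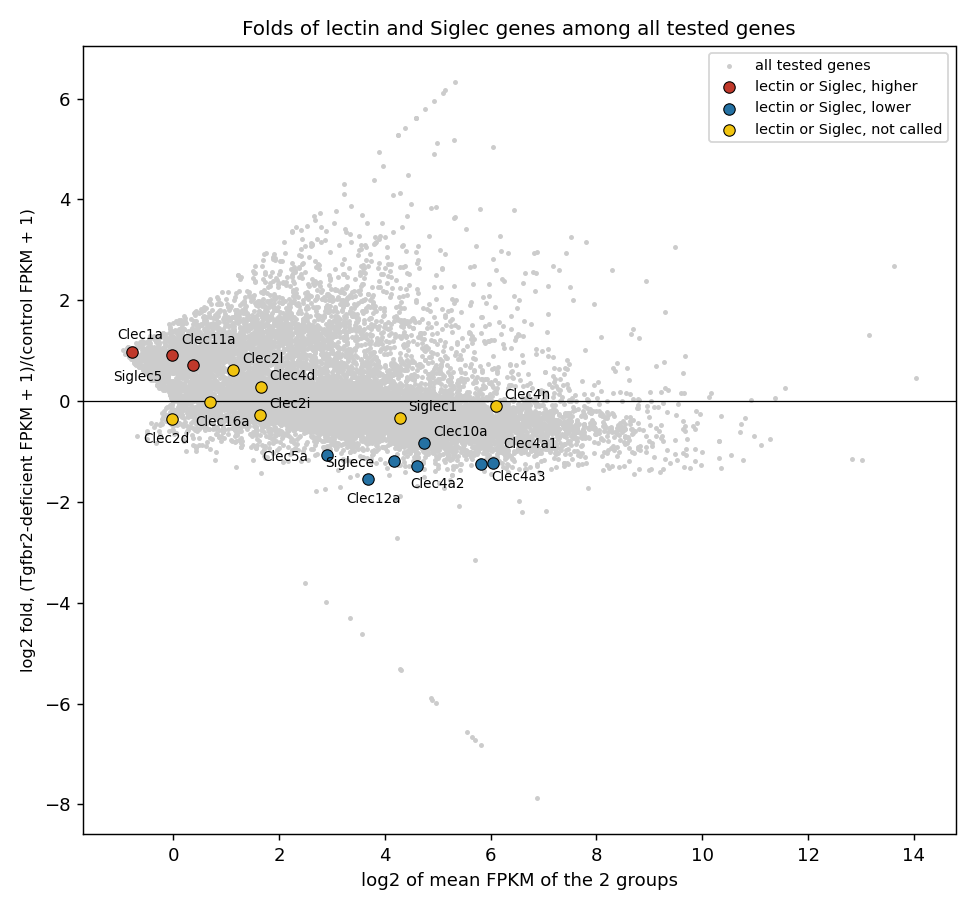
Log2 fold of (FPKM + 1), Tgfbr2-deficient over control, against log2 mean FPKM for the 13356 genes counted (grey) and the 17 lectins and Siglecs among them (coloured by call). The 7 lower genes lie at log2 folds of −0.83 to −1.55, while the 3 higher genes lie at the low end of expression, where many grey points are above 0.

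The DCIR-type lectins of the Clec4a group had the highest control levels of the genes that fell. Clec4a1 had 39.1 FPKM in the Tgfbr2-deficient group and 92.6 FPKM in the control group, a log2(FPKM + 1) fold of −1.22. Clec4a3 had 32.7 FPKM in the Tgfbr2-deficient group and 79.6 FPKM in the control group, a fold of −1.26 on the same scale. Clec4a2, the DCIR gene proper, whose product carries an inhibitory motif, had 13.7 FPKM in the Tgfbr2-deficient group and 35 FPKM in the control group, a fold of −1.29. The 3 genes thus kept their order of level in both groups and stood at 42.3%, 41.1% and 39.3% of the control level. All 3 had q = 0.00029 in the authors' deposited table, its smallest value, which 2357 genes share, so they cannot be ranked by it. In mm10 the 3 genes lie on the plus strand of chromosome 6, Clec4a1 from 122921848 to 122934619, Clec4a3 from 122952515 to 122969878 and Clec4a2 from 123122690 to 123143999.

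Clec12a and Siglece, which encode inhibitory receptors of myeloid cells, also fell. Clec12a, an inhibitory lectin that recognises uric acid crystals, had 6.0 FPKM in the Tgfbr2-deficient group and 19.5 FPKM in the control group. Its log2(FPKM + 1) fold of −1.55 was the lowest of the 33 genes and left 30.8% of the control level. Siglece had 10.5 FPKM in the Tgfbr2-deficient group and 25.4 FPKM in the control group, a fold of −1.19 on that scale and 41.5% of the control level. Both had q = 0.00029 in the authors' deposited table. Clec12a lies on chromosome 6 from 129350244 to 129365303 on the plus strand and Siglece on chromosome 7 from 43651070 to 43660161 on the minus strand.

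Promoter windows of 4 of the 7 lower genes, and of Clec4d as a neighbour that was not lower, are printed here to show the sequence at the start sites of genes that moved together. Each window runs from 250 bases before to 50 bases after a RefSeq start site in GRCm38.p6, 5′ to 3′ on the strand of the gene. Capitals mark GAGGAA, a core recognised by the myeloid factor PU.1, which reads TTCCTC where it lies on the other strand. The windows are chr6:122921598-122921897 for Clec4a1, chr6:123122440-123122739 for Clec4a2, chr6:129349994-129350293 for Clec12a and chr6:123261857-123262156 for Clec4d, all on the plus strand, and chr7:43660112-43660411 for Siglece on the minus strand.
Clec4a1: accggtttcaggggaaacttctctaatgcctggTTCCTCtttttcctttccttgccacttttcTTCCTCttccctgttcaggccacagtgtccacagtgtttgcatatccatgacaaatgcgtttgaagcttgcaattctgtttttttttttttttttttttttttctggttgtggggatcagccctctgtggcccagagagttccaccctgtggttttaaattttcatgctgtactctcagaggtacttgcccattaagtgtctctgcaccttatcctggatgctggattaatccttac
Clec4a2: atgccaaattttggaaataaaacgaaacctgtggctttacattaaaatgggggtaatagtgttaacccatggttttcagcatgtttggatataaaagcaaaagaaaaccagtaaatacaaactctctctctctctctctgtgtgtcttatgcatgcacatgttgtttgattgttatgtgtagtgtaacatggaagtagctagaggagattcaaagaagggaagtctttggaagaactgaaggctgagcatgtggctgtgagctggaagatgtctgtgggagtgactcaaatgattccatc
Clec12a: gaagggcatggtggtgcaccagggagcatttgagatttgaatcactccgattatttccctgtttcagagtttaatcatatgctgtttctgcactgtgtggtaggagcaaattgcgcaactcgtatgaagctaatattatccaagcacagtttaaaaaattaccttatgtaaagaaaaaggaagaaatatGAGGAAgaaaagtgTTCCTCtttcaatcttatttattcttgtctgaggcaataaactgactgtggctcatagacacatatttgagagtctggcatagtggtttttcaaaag
Siglece: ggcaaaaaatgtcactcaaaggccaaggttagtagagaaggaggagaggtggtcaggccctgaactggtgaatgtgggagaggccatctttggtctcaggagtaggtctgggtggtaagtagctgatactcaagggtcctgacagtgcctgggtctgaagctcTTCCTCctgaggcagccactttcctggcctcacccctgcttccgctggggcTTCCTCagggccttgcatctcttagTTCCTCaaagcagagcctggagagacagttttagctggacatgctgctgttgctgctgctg
Clec4d: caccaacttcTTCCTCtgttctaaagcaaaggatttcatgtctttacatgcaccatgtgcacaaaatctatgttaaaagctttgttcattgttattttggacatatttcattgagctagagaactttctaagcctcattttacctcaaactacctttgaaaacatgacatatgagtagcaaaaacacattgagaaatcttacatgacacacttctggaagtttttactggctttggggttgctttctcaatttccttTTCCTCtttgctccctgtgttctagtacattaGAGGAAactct

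Clec4a1 and Clec12a hold 2 copies of GAGGAA each, Siglece and Clec4d hold 3 each, and Clec4a2 holds 0. The copy nearest to the start site begins 11 bases before it in Siglece, 47 bases before it in Clec12a and 187 bases before it in Clec4a1. In Clec4d, which was not lower, the nearest copy lies 7 bases after the start site. RefSeq windows were found for 25 of the 33 genes and for 13 of the 17 counted ones. GAGGAA, searched on both strands, was in a window of 5 of 6 lower genes, 2 of 2 higher genes and 3 of 5 genes that did not pass, and in 31.3% of the 27025 genes with a window. The AP-1 motif TGAGTCA, searched the same way, was in 1 of the 6 lower genes, Clec4a2, in 0 of the other counted genes and in 5.95% of the same genes. Copies of GAGGAA were as many in Clec4d, which was not lower, as in Siglece, which was, and Clec4a2 was lower with 0 copies. Whether the motif has a part in the levels of these genes was not tested. A match describes the letters and is not a binding site.

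Among the activating lectins the values were mixed. Clec5a, a myeloid receptor that signals through DAP12, had 4.45 FPKM in the Tgfbr2-deficient group and 10.5 FPKM in the control group. Its log2(FPKM + 1) fold was −1.07 and its q in the authors' deposited table was 0.00029. The table's locus for Clec5a also spans neighbouring genes, and RefSeq places Clec5a itself on chromosome 6 from 40574898 to 40585805. Clec4n, which pairs with the Fc receptor γ chain, had 65.8 FPKM in the Tgfbr2-deficient group and 70.8 FPKM in the control group, and the authors' deposited table gives q = 0.74. The fold of Clec4n on log2(FPKM + 1) was −0.10 and becomes 0.44 with ribosomal protein centring, so it has no direction across scalings. Clec4d, a lectin of the same signalling type that binds a mycobacterial glycolipid, had 3.53 FPKM in the Tgfbr2-deficient group and 2.74 FPKM in the control group, and the authors' deposited table gives q = 0.449. Clec4e, the related receptor Mincle, had 0.185 FPKM in the Tgfbr2-deficient group and 0.473 FPKM in the control group and was not tested. A q-value above 0.05 does not show that Clec4n and Clec4d were equal in the groups, and no interval can be set on their folds.

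Clec10a fell and Siglec1 did not pass, and both are known from tissue macrophages among other cells. Clec10a, a lectin for galactose-type sugars, had 19 FPKM in the Tgfbr2-deficient group and 34.5 FPKM in the control group. Its log2(FPKM + 1) fold of −0.83 was the smallest of the 7 falls, with q = 0.00165 in the authors' deposited table. Siglec1, the adhesion receptor sialoadhesin, had 17 FPKM in the Tgfbr2-deficient group and 21.8 FPKM in the control group, and the authors' deposited table gives q = 0.172. The log2(FPKM + 1) fold of Siglec1 was −0.34 and becomes 0.20 with ribosomal protein centring. Clec10a lies on chromosome 11 from 70166623 to 70170836 on the plus strand and Siglec1 on chromosome 2 from 131069220 to 131086765 on the minus strand.

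Markers of macrophages moved with these falls. Of 10 microglia and macrophage markers 8 were lower and 0 higher, with a median log2(FPKM + 1) fold of −1.16, and their summed level was 2426 FPKM in the Tgfbr2-deficient group and 5538 FPKM in the control group. Single markers of the 10 ranged, in FPKM, between 25.5 and 589 in the Tgfbr2-deficient group and between 35 and 1414 in the control group. Of 8 border-associated macrophage markers 6 were lower and 0 higher, with a median of −1.26 and a sum of 1948 FPKM in the Tgfbr2-deficient group and 4796 FPKM in the control group. None of these 18 markers was listed at 0. Other myeloid markers differed in direction. Of 6 monocyte markers counted 2 were higher, Fn1 and Vcan, and 1 was lower, Ccr2, while Ly6c2, Plac8 and S100a4 did not pass. Of 6 neutrophil markers 3 were higher and 0 lower, and of 5 dendritic cell markers 3 were higher and 1 was lower. Over all counted genes 14.7% were lower and 23.9% higher. Of 7 mast cell markers 5 were higher and 0 lower, with a median log2(FPKM + 1) fold of 4.91, the largest median of any marker list here, and a sum of 361 FPKM in the Tgfbr2-deficient group and 8 FPKM in the control group. The summed level was 131 FPKM in the Tgfbr2-deficient group and 116 FPKM in the control group for the monocyte list. It was 56.7 FPKM in the Tgfbr2-deficient group and 11.8 FPKM in the control group for the neutrophil list. For the dendritic cell list it was 15.2 FPKM in the Tgfbr2-deficient group and 11.4 FPKM in the control group. The lists were chosen with earlier results of these data known, and the part of these cells in the falls of the lectins was not tested.

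Set against the summed microglia and macrophage markers of its own group, 5 of the 9 lectins and Siglecs at 5 FPKM or more had ratios between the groups near 1 and 4 stood further from it. Per 1000 FPKM of summed markers, Clec4n stood at 27.1 FPKM in the Tgfbr2-deficient group and 12.8 FPKM in the control group, a ratio of 2.12. Siglec1 stood at 6.99 FPKM per 1000 in the Tgfbr2-deficient group and 3.93 FPKM per 1000 in the control group, a ratio of 1.78. Clec10a had a ratio of 1.25 and Clec12a one of 0.703, while Clec4a1, Clec4a2, Clec4a3, Siglece and Clec5a had ratios of 0.897 to 0.969. These ratios are quotients of group values with no test, and they are not levels per cell.

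**Figure D3:**
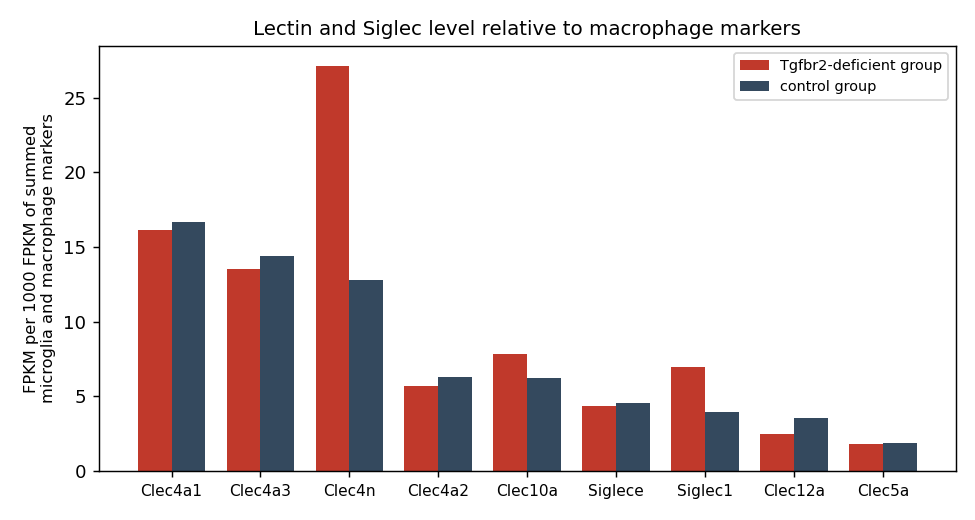
FPKM of the 9 lectins and Siglecs at 5 FPKM or more, per 1000 FPKM of the 10 summed microglia and macrophage markers, in the Tgfbr2-deficient group (left bar) and the control group (right bar), with no error bars because each group has 1 value. The Clec4n and Siglec1 bars are 2.12 and 1.78 times as high in the Tgfbr2-deficient group, and 5 genes have ratios between 0.897 and 0.969.

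The 3 genes that were higher were Clec1a, Clec11a and Siglec5. Clec1a, a lectin described in endothelium and dendritic cells, had 1.1 FPKM in the Tgfbr2-deficient group and 0.0677 FPKM in the control group, and the authors' deposited table gives q = 0.00165. Clec11a, a secreted growth factor that promotes bone formation, had 1.59 FPKM in the Tgfbr2-deficient group and 0.377 FPKM in the control group, and the authors' deposited table gives q = 0.00185. The row named Siglec5 lies at chromosome 7 from 43351341 to 43359470, the position of the gene RefSeq calls Siglecf, a Siglec of eosinophils and some tissue macrophages. It had 1.85 FPKM in the Tgfbr2-deficient group and 0.724 FPKM in the control group, and the authors' deposited table gives q = 0.00446. The log2(FPKM + 1) folds of 0.97 for Clec1a, 0.91 for Clec11a and 0.73 for Siglec5 are held down by the added 1 FPKM. All 3 genes lie in the range under 5 FPKM, where 40.9% of all genes were higher.

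Most counted markers of other cell types were higher as well, where 23.9% of all counted genes were higher and 14.7% lower. Of 10 endothelial markers 9 were higher, with a sum of 275 FPKM in the Tgfbr2-deficient group and 22.2 FPKM in the control group. All 6 connective tissue markers were higher, with a sum of 1025 FPKM in the Tgfbr2-deficient group and 123 FPKM in the control group. Of 5 eosinophil markers only Prg2 reached 1 FPKM, at 9.87 FPKM in the Tgfbr2-deficient group and 0.458 FPKM in the control group. Ccr3, Epx, Ear1 and Il5ra stayed below it and were not counted. Ccr3 went the other way, with a log2 fold of −1.02 and q = 0.0449 in the authors' deposited table. Epx had a log2 fold of 6.79 there and did not pass, with q = 0.244, and Ear1 and Il5ra were not tested. Of 6 bone cell markers, Ctsk, a protease of osteoclasts, was higher, at 7.27 FPKM in the Tgfbr2-deficient group and 1.0 FPKM in the control group, and the authors' deposited table gives q = 0.00029. Acp5, an enzyme of osteoclasts and macrophages, had 23.6 FPKM in the Tgfbr2-deficient group and 15.1 FPKM in the control group and did not pass, and Runx2, Bglap, Sp7 and Ocstamp stayed below 1 FPKM in both groups. All 7 megakaryocyte and platelet markers were higher, with a sum of 149 FPKM in the Tgfbr2-deficient group and 8.54 FPKM in the control group. Of 7 natural killer and lymphoid markers the 3 counted were higher, with a sum over the list of 13.4 FPKM in the Tgfbr2-deficient group and 0.687 FPKM in the control group. All 6 neuron markers were higher, with a sum of 275 FPKM in the Tgfbr2-deficient group and 124 FPKM in the control group. The part of these cell types in the values of Clec1a, Clec11a and Siglec5 was not tested.

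The other 4 counted genes did not pass. Clec2i and Clec2d, which encode the ligands Clr-g and Clr-b of natural killer cell receptors, had 2.72 and 0.74 FPKM in the Tgfbr2-deficient group, against 3.49 and 1.23 FPKM in the control group. The authors give Clec2i the same locus as BC035044, which was lower, at 5.56 FPKM in the Tgfbr2-deficient group and 10.8 FPKM in the control group. RefSeq places Clec2i itself on chromosome 6 from 128887587 to 128898168. Clec2l, a lectin known from brain, had 2.85 FPKM in the Tgfbr2-deficient group and 1.53 FPKM in the control group, the lowest q of the 4 at 0.0714 in the authors' deposited table. Clec16a, an endolysosomal protein that carries the lectin name, had 1.6 FPKM in the Tgfbr2-deficient group and 1.64 FPKM in the control group. The receptor for Clr-b, Klrb1b, had 1.38 FPKM in the Tgfbr2-deficient group and 0.0591 FPKM in the control group, and was higher with q = 0.0146 in the authors' deposited table.

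A further 2 genes had a test but stayed just under 1 FPKM. Clec3b, the plasminogen-binding protein tetranectin, had 0.951 FPKM in the Tgfbr2-deficient group and 0.0368 FPKM in the control group, and the authors' deposited table gives q = 0.269. Siglecg, an inhibitory Siglec of B cells, had 0.862 FPKM in the Tgfbr2-deficient group and 0.925 FPKM in the control group, and the authors' deposited table gives q = 0.871.

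The 14 untested genes reached at most 0.601 FPKM in the Tgfbr2-deficient group and 0.506 FPKM in the control group. They were Clec2e, Clec2g, Clec2h, Clec3a, Clec4a4, Clec4b1, Clec4b2, Clec4e, Clec4f, Clec4g, Clec9a, Clec12b, Clec18a and Siglec15. Clec4b2 was listed at 0 in both groups, and Clec3a, Clec12b and Siglec15 were listed at 0 in the control group alone. Clec9a, the receptor for dead cells on cross-presenting dendritic cells, had 0.242 FPKM in the Tgfbr2-deficient group and 0.0079 FPKM in the control group. Clec4f, known from the Kupffer cells of the liver, had 0.0452 FPKM in the Tgfbr2-deficient group and 0.00876 FPKM in the control group. At these levels and with depth unknown, no direction is read from them.

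Many of the lectins lie close together, and neighbours differed widely in level. On chromosome 6 there were 21 of the 33 genes, and 9 of them, from Clec4a1 to Clec4e, fill a stretch of 368 kb in which the table places no other gene whole. Along it, Clec4a1, Clec4a3, Clec4a2 and Clec4n stood at 13.7 to 65.8 FPKM in the Tgfbr2-deficient group and 35 to 92.6 FPKM in the control group. Clec4a4, Clec4b1, Clec4b2 and Clec4e between and beside them stayed under 1 FPKM. The genes that fell lie within the first 201 kb of the stretch, counted from start to start, and Clec4n and Clec4d lie 308 and 340 kb from its first base. A second stretch of 810 kb from Clec2h to Clec7a holds 9 of the 33 genes among 22 genes of the table, and Clec12a fell there while Clec1a, 76 kb from it, rose.

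**Figure D4:**
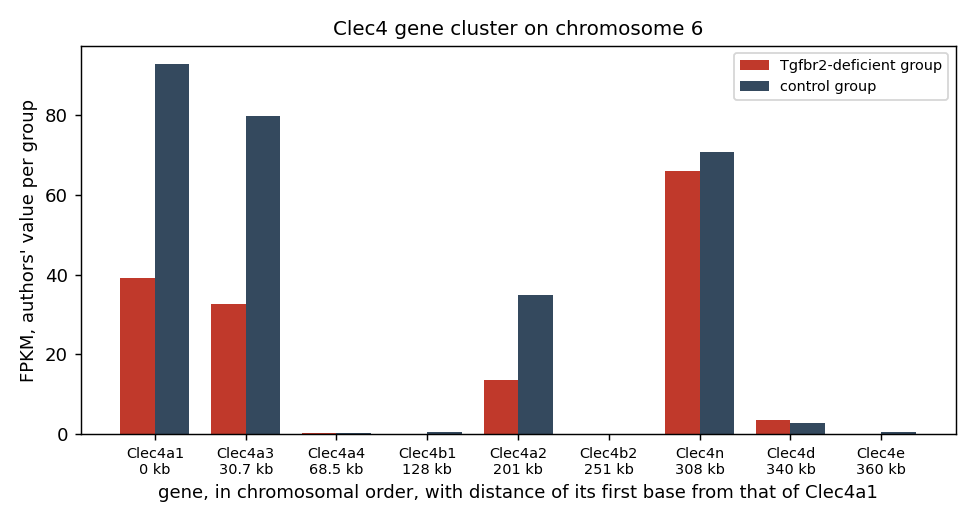
FPKM of the 9 genes of the Clec4 cluster on chromosome 6 in chromosomal order, in the Tgfbr2-deficient group (left bar) and the control group (right bar), with the distance of each first base from that of Clec4a1 and with no error bars. Clec4a1, Clec4a3 and Clec4a2 have shorter bars in the Tgfbr2-deficient group, and the bars of Clec4n, at 65.8 FPKM in the Tgfbr2-deficient group and 70.8 FPKM in the control group, are nearly level.

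Likeness between paralogues could mix their reads, so transcripts were compared in stretches as long as a read. Of the distinct 50-base stretches of annotated transcripts, 0% of those of Clec4a1, Clec4a3, Clec4d, Clec5a and Siglece were found in a transcript of another gene. For Clec4a2 the share was 6.83%, mostly with Clec4a4 and Clec4b1, and for Clec10a it was 9.02%, mostly with its neighbour in sequence Mgl2. Clec4n shared 0.686% and Clec12a 0.457%. Clec4a4, at 15.7%, had the largest share of the 33 genes, and its low value is uncertain for that reason. The kits do not mark strand, and in the GENCODE annotation exons of Clec4g overlap a gene on the other strand, and those of Clec9a overlap Clec1b on the same strand.

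Most of the adaptors, kinases and phosphatases through which these receptors signal were lower as well. Of 27 genes of this list 18 were lower, 3 were higher and 6 did not pass. Over all counted genes 14.7% were lower and 23.9% higher. The median log2(FPKM + 1) fold was −0.68 for the list and −0.08 over all counted genes. Most of the list is abundant: 24 genes reached 5 FPKM, of which 18 were lower and 2 higher. Among all genes of that level 19.5% were lower and 17.2% higher, with a median of −0.21. Fcer1g, the Fc receptor γ chain, had 589 FPKM in the Tgfbr2-deficient group and 1414 FPKM in the control group. Tyrobp, which encodes DAP12, had 530 FPKM in the Tgfbr2-deficient group and 1121 FPKM in the control group. Card9, the adaptor that links Syk to NF-κB, had 5.89 FPKM in the Tgfbr2-deficient group and 14.7 FPKM in the control group. The 3 higher ones were the kinases Src and Fgr and the ubiquitin ligase Cblb, and Src had 14 FPKM in the Tgfbr2-deficient group and 4.68 FPKM in the control group. Fcer1g, Tyrobp, Card9 and Src each had q = 0.00029 in the authors' deposited table. Syk, at 24.9 FPKM in the Tgfbr2-deficient group and 46.5 FPKM in the control group, and the phosphatase Ptpn6, at 133 FPKM in the Tgfbr2-deficient group and 274 FPKM in the control group, were also lower and were picked after their values were seen. Fcer1g is also one of the macrophage markers above.

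**Figure D5:**
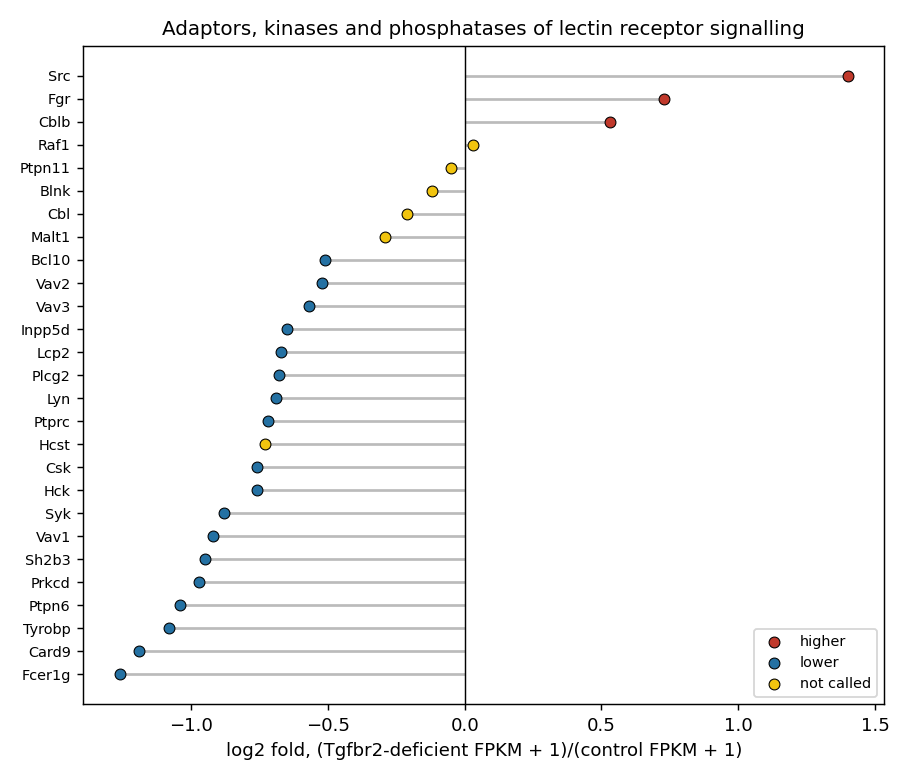
Log2 fold of (FPKM + 1), Tgfbr2-deficient over control, for 27 genes of lectin and Siglec receptor signalling, coloured by call, with no error bars because each group has 1 value. The 18 lower genes lie left of 0, with Fcer1g at −1.26 the furthest, and Src at 1.40 is the furthest of the 3 higher genes.

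Genes that make, attach or remove sialic acid, the ligand of Siglecs, moved in both directions. Of 31 genes 24 were counted, of which 9 were higher, 7 were lower and 8 did not pass, with a median log2(FPKM + 1) fold of −0.02. Over all counted genes 23.9% were higher and 14.7% lower, with a median of −0.08. St8sia2, which builds polysialic acid on neural cell adhesion molecule, had 13.5 FPKM in the Tgfbr2-deficient group and 3.65 FPKM in the control group. St6galnac3, a sialyltransferase, had 3.69 FPKM in the Tgfbr2-deficient group and 0.7 FPKM in the control group. Npl, which breaks down free sialic acid, had 91.1 FPKM in the Tgfbr2-deficient group and 200 FPKM in the control group, and the sialyltransferase St6galnac4 had 24.2 FPKM in the Tgfbr2-deficient group and 46.8 FPKM in the control group. Each of these 4 had q = 0.00029 in the authors' deposited table.

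Lectins and sialic acid receptors with other names also divided. Of 57 such genes 24 were counted, of which 11 were higher, 6 were lower and 7 did not pass, with a median log2(FPKM + 1) fold of 0.49. Over all counted genes 23.9% were higher and 14.7% lower, with a median of −0.08. Cd248 and Mrc2, lectins of stromal cells, had 43.2 and 7.93 FPKM in the Tgfbr2-deficient group, against 5.57 and 1.18 FPKM in the control group. Cd93, an endothelial lectin, had 16 FPKM in the Tgfbr2-deficient group and 3.46 FPKM in the control group, and Prg2, the granule lectin of eosinophils named above, had the largest rise of the list on log2(FPKM + 1), at 2.90, while by ratio Klrb1b rose more, 23.4 times against 21.5 times. These 4 had q = 0.00029 in the authors' deposited table. Cd33, itself a Siglec under another name, and Mgl2, the paralogue of Clec10a, fell and were picked after their values were seen, Cd33 to 15.5 FPKM in the Tgfbr2-deficient group, against 32.3 FPKM in the control group, and Mgl2 to 13.7 FPKM in the Tgfbr2-deficient group, against 24.5 FPKM in the control group. Of 15 ligands or partner receptors of lectins and Siglecs, 12 were counted, of which 8 were higher, 0 were lower and 4 did not pass. Their median was 1.43, beside the −0.08 of all counted genes, of which 23.9% were higher and 14.7% lower. Klrb1a and Klrb1f stand both in this list and among the lectins with other names. Cd24a, a glycoprotein that Siglecs bind, had 142 FPKM in the Tgfbr2-deficient group and 32.7 FPKM in the control group, and Mmrn2, Vwf and Podxl, known from endothelium and in the case of Vwf also from megakaryocytes and platelets, had 10.1, 9.68 and 8.73 FPKM in the Tgfbr2-deficient group, against 0.684, 0.701 and 0.877 FPKM in the control group.

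The 4 genes left out by name stood as follows. Siglech had 5.94 FPKM in the Tgfbr2-deficient group and 18.8 FPKM in the control group and Clec7a 10.6 FPKM in the Tgfbr2-deficient group and 16.8 FPKM in the control group, both lower by the q-value in the authors' deposited table. Clec14a had 10.6 FPKM in the Tgfbr2-deficient group and 0.241 FPKM in the control group and was higher, and Clec1b had 10.6 FPKM in the Tgfbr2-deficient group and 0.107 FPKM in the control group, and the authors' deposited table gives it q = 0.181.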

How the data were processed

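RNA was measured in 4 Tgfbr2-deficient and 3 control libraries, grouped by the genotype in the labels. Per the labels' protocols, total RNA went through SMART-Seq v4 for complementary DNA and Nextera XT for libraries, neither of which marks strand. Amplifying RNA of few cells makes low values noisier. Per the submitters' processing notes, reads were handled with TopHat2, Cufflinks 2.2.1 and Cuffdiff on mm10. Annotation, normalization and test options are not stated there.

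The FPKM values are those of the authors' deposited table, 1 per gene and group. The deposited log2 fold, p-value, q-value and test statistic score are Cuffdiff output per the file headers; the log2 fold gave the direction of a call and the minimum fold below, and the score was not used further. The table has 0 columns of values per library. Its starts count from 0 (22 of 33 starts equalled the RefSeq start less 1) and were printed from 1. All 33 genes overlapped their RefSeq gene, 32 by symbol and 1 by synonym.

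A gene was counted with status OK and 1 FPKM in either group, and called at q under 0.05, as deposited, over all 14043 genes the authors tested. Printed folds are log2 of (FPKM + 1) unless named as deposited. The members and gene lists were chosen with earlier results of these data known. The lists share genes and are not independent: Mrc1, Cd209a and Vcan, lectins with other names, are also border-associated macrophage, dendritic cell and monocyte markers. All members are named; from each pathway list up to 4 called genes with the smallest p, ties ordered by fold. Alternatives were no filter, 5 FPKM, q under 0.01, q recomputed over counted genes, rows of several symbols left out, a minimum of 1 for the absolute deposited log2 fold, 0.1 FPKM added and centring on all counted genes or ribosomal protein genes. Promoter windows are RefSeq GRCm38.p6 and transcripts GENCODE M21. Calculations used Python 3.11.15, pandas 2.3.3 and Biopython 1.88. The step that applies the q-value threshold was run on simulated p-values, which checks that step and not the authors' test.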

Additional observations from a re-analysis of the deposited data

How the results depend on the processing

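The lower count was 7 with no FPKM filter, at 5 FPKM, at q under 0.01, with q-values recomputed over counted genes and without rows of several symbols. It was 6 with a minimum absolute log2 fold of 1 on the fold in the authors' deposited table, where Clec10a, at −0.86 on that scale, was lost. The higher count of 3 became 0 at 5 FPKM, since all 3 genes lie below it. Centring on ribosomal protein genes turned the median of the 17 genes to 0.20 and gave 0.52 for Clec16a, 0.18 for Clec2d, 0.27 for Clec2i, 0.44 for Clec4n and 0.20 for Siglec1, none of which had passed. Clec16a also became 0.06 when centred on all counted genes. The 7 falls kept their sign under both centrings and with 0.1 FPKM added. With ribosomal protein centring they were smaller, from −1.01 for Clec12a to −0.53 for Clec5a and −0.29 for Clec10a.

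Over all genes, the higher count became 1643 at 5 FPKM, and the lower count became 1026 at q under 0.01 and 368 with a deposited log2 fold of at least 1 in size. At 5 FPKM, sialic acid genes had 3 higher, other lectins 7 higher, dendritic cell markers 0 higher and 0 lower, and lymphoid markers 1 higher. At q under 0.01, sialic acid genes had 5 higher and neutrophil markers 1 higher. With a deposited log2 fold of at least 1, signalling genes had 4 lower, sialic acid genes 1 lower and other lectins 3 lower. With no filter, eosinophil markers had 1 lower, Ccr3, and bone cell markers 2 higher. The other 192 list counts stayed within 1.5 times.

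No paired analysis was possible because the table has 1 value per group and none per library. Leaving out a replicate and setting an interval or floor were not possible for the same reason.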

Other observations

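Other families of paired or inhibitory myeloid receptors, picked by name after the data were seen, held lower genes, genes that did not pass and, in 2 of 3 groups, a higher gene. Over all counted genes 14.7% were lower and 23.9% higher, and a difference of these small counts from those shares was not tested. Of 5 CD300 genes counted, 2 were lower and 0 higher, with Cd300a at 23.7 FPKM in the Tgfbr2-deficient group and 40.2 FPKM in the control group. Of 10 genes of the leukocyte and paired immunoglobulin-like receptor families, 2 were lower and 1 higher. Lilrb3 had 7.29 FPKM in the Tgfbr2-deficient group and 14.6 FPKM in the control group, while Lilrb4 had 32.6 FPKM in the Tgfbr2-deficient group and 30.8 FPKM in the control group, and the authors' deposited table gives q = 0.797. Of 5 genes of the SIRP, CD200R and LAIR group, 2 were lower and 1 higher, with a median log2(FPKM + 1) fold of 0.39. Sirpa, the receptor for the antiphagocytic signal Cd47, fell to 275 FPKM in the Tgfbr2-deficient group, against 564 FPKM in the control group, while Cd200r4, of the CD200 receptor family, had 1.93 FPKM in the Tgfbr2-deficient group and 0.658 FPKM in the control group, and the authors' deposited table gives q = 0.00568.

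Of 6 galectins counted, soluble lectins of another fold, 1 was lower and 0 were higher, where 14.7% of all counted genes were lower and 23.9% higher. Lgals1 had 373 FPKM in the Tgfbr2-deficient group and 692 FPKM in the control group, and the authors' deposited table gives q = 0.00165. Lgals3, a galectin of activated macrophages, had 73 FPKM in the Tgfbr2-deficient group and 56 FPKM in the control group and did not pass.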
